A study of Rattus norvegicus with 8 samples.

Results

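The genes described here encode the vomeronasal receptors (Vom1r and Vom2r), the trace amine-associated receptors (Taar) and the taste receptors (Tas1r and Tas2r) of the rat, as measured in liver. The families were picked with earlier results of these data known, and their probes by gene symbol alone. Every probe whose RefSeq accession leads to a symbol that starts with one of these 5 names and a number was kept, whatever its signal. This gave 72 probes for 70 genes, of 41012 non-control probes on the array, 16336 of which carry one of 13031 rat symbols. By family there were 38 probes for 36 Vom2r genes, 6 probes for 6 Vom1r genes, 15 for 15 Taar genes, 2 for 2 Tas1r genes and 11 for 11 Tas2r genes. The RefSeq gene table lists 247 genes of these families, so 108 Vom1r genes, for example, were represented by 6.

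RNA from the liver of male Wistar/ST rats was hybridised to 8 one-colour Agilent arrays in 2 groups of 4. The Eucommia group drank water with a leaf extract of Eucommia ulmoides, a tree from China also used as an herbal tea, and the Control group did not. Both groups were on a high-fat diet with high-fructose water, for 5 weeks, so the Control rats also carried this diet; the labels give no age and no group on ordinary chow. The comparison asks which of these receptors differ in liver between rats with and without the extract. Samples are numbered 1 to 4 within a group and the labels speak of liver from each rat, but whether every array is a rat of its own is not stated, so the p-values reflect the spread between samples, which may be technical.

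Vomeronasal receptors are G protein-coupled receptors of sensory neurons in the vomeronasal organ: the Vom1r family signals through one G protein and is known for small molecules, the Vom2r family has a long extracellular part and is known for peptides and proteins, and both open an ion channel through phospholipase C. Trace amine-associated receptors bind amines and, apart from Taar1, which is known from the brain, are olfactory receptors that use the cyclic AMP pathway of odorant receptors. Taste receptors type 1 pair to sense amino acids and sugars and type 2 receptors sense bitter compounds, both through phospholipase C in taste cells and in tuft cells, the chemosensory cells of other epithelia. None of these families is known as a major liver product.

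The RefSeq promoter windows of 4 members that the results turn on are shown here, because each of these genes was higher in Eucommia liver: Vom2r40 and Taar8c were above background in both groups, Vom2r47 in the Eucommia group alone, and Tas1r1 is the taste receptor that was above background on every array. Each window has 300 bases, 250 before and 50 after the annotated start, on assembly GRCr8: Vom2r40 at chr1:148486078-148486377 (minus strand), Vom2r47 at chr2:151295063-151295362 (minus strand), Taar8c at chr1:23108843-23109142 (plus strand) and Tas1r1 at chr5:167828241-167828540 (minus strand). Capitals mark TATAAA, the TATA box, on either strand (TTTATA on the other strand), and TAATTA, a homeodomain core that reads the same on both strands.
Vom2r40: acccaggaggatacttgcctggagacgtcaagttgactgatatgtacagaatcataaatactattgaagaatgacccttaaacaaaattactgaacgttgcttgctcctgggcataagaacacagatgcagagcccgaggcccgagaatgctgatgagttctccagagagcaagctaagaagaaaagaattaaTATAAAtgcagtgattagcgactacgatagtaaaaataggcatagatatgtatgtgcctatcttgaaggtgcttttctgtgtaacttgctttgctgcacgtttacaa
Vom2r47: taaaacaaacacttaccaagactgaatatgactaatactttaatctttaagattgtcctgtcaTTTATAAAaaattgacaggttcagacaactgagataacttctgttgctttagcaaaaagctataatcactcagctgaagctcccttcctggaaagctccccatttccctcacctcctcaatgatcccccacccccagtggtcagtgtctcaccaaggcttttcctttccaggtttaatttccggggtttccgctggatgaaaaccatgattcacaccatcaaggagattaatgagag
Taar8c: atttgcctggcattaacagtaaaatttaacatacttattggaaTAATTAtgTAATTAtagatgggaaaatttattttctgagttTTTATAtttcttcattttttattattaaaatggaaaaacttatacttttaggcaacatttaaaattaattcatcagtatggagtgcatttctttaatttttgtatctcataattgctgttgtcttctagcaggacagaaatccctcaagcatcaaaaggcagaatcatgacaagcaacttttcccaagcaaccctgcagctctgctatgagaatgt
Tas1r1: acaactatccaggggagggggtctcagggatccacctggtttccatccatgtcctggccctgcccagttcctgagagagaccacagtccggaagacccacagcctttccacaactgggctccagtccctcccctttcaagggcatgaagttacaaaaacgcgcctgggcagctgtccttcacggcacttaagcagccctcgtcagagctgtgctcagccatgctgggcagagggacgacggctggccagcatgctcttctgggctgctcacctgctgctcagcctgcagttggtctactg
In the Vom2r47 window the 2 matches of the TATA box lie on opposite strands and overlap, and the Tas1r1 window holds none of the motifs. Windows were found for 65 of the 70 genes. TATAAA was present in 24.6% of these, beside 14.3% of all 27457 windows, and TAATTA in 20%, beside 5.35%. Both motifs hold only A and T, and the base composition of these sets of windows was not compared. A further motif, CCCNNGGG of the EBF factors of olfactory neurons, searched on both strands, was present in 10.8% of the receptor windows and 12.7% of all windows, and in none of the windows shown. In 49 of the 65 receptor windows (75.4%) the annotated start is an ATG, against 10.5% of all windows, so for most of these genes the window lies before the coding sequence and need not lie before a transcript start.

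A signal is given as the log2 of the processed signal minus the array's 75th percentile, so 0 is the signal at that percentile, and differences are Eucommia minus Control with their standard error from limma. A probe counts as above background where the scanner software marked it well above background. The Eucommia arrays filled one slide and the Control arrays another, each scanned separately, and in every value here the slide and the group cannot be told apart. On the Eucommia arrays 70.7% ± 1.16 of spots were above background, against 59.8% ± 1.17 on the Control arrays (SD, n = 4 each). The lowest log2 signal of any probe was -7.60 ± 0.07 on Eucommia arrays and -6.64 ± 0.11 on Control arrays, and the lowest log2 signal above background was -5.27 ± 0.07 on Eucommia arrays and -4.30 ± 0.10 on Control arrays (SD, n = 4 each). The tissue label fits its markers: 8 of 8 hepatocyte genes were above background on every array, and albumin (Alb) had a log2 signal of 9.79 ± 0.09 in Eucommia and 9.96 ± 0.11 in Control liver (SD, n = 4 each). In bulk liver, fewer cells of a type and less RNA per cell cannot be told apart, and members of these families have close relatives whose RNA a probe may also bind, so a value belongs to the probe and is uncertain between near-identical copies.

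Most of the receptors gave no signal above background in liver, and those that did were found more often on Eucommia arrays. On the 4 Eucommia arrays 19, 19, 18 and 16 of the 72 probes were above background, against 5, 8, 8 and 5 on the 4 Control arrays. The groups did not overlap: the mean share was 25% ± 1.96 on Eucommia arrays and 9.03% ± 2.41 on Control arrays (SD, n = 4 each). Over all non-control probes the share was 70.3% ± 1.17 on Eucommia arrays and 59.2% ± 1.19 on Control arrays, and over 1041 odorant receptor probes it was 42.6% ± 1.94 on Eucommia arrays and 14.1% ± 2.08 on Control arrays (SD, n = 4 each). The 72 probes were thus above background less often than probes in general in both groups, and no test was made of the shares because each comes from a slide with its own detection limit. With the scanner's weaker mark, a positive signal distinguishable from background, the shares were 50.7% ± 3.68 on Eucommia arrays and 36.5% ± 8.21 on Control arrays (SD, n = 4 each).

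**Figure D1:**
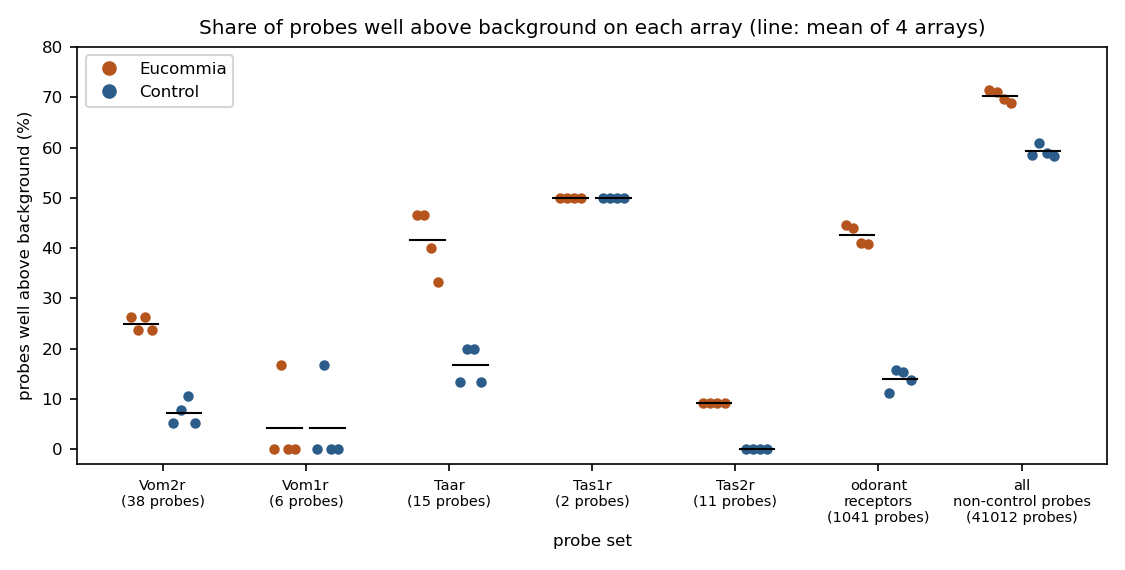
Share of probes well above background (percent, vertical axis) on each of the 4 Eucommia arrays and 4 Control arrays, for the 5 receptor families, 1041 odorant receptor probes and all 41012 non-control probes. Points are arrays and the line is the mean of 4; the Eucommia points lie above the Control points for Vom2r, Taar, Tas2r, odorant receptors and all probes, and the Vom1r and Tas1r shares are the same in both groups.

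The families differed. In Vom2r, 10, 9, 10 and 9 of 38 probes were above background on the Eucommia arrays, against 2, 3, 4 and 2 on the Control arrays. In Taar, 7, 7, 6 and 5 of 15 were above background on the Eucommia arrays, against 2, 3, 3 and 2 on the Control arrays. In both families every Eucommia array had more such probes than any Control array. In Tas2r, 1 of 11 probes was above background on each Eucommia array and 0 on each Control array. In Tas1r, 1 of 2 was above background on all 8 arrays, and in Vom1r 1 of 6 was on 1 Eucommia array and 1 on 1 Control array. The Vom1r and Tas2r families were therefore almost without signal above background in these livers.

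Of the 72 probes, 15 were higher, 33 lower and 24 not called in Eucommia liver at an adjusted p under 0.05 (limma, Benjamini-Hochberg over all 41012 probes). Over all probes, 13.7% were higher and 19.3% lower. The median log2 difference was -0.65 over the 72 probes, -0.09 over all probes and 0.14 over the odorant receptor probes. In Vom2r 8 were higher and 17 lower, in Taar 4 higher and 6 lower, in Tas2r 2 higher and 6 lower, in Tas1r 1 higher and 0 lower, and in Vom1r 0 higher and 4 lower. Of the 15 higher probes 14 were above background on at least 1 array, and of the 33 lower probes 31 were above background on none. Over all probes, 5432 of the 5620 higher ones were above background on at least 1 array and 5604 of the 7908 lower ones on none. Being above background follows in part from the signal compared, so these counts are a description.

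Most of the lower calls concern probes below the detection limit. Of the 33, 15 had all 8 arrays within 0.5 of the array's lowest signal, and 23 had all 4 Eucommia arrays within 0.5 of it. Others had Control values well above it, as Taar4 did, named after its values were seen, at -5.33, -6.93, -6.59 and -6.26 on the Eucommia arrays, against -5.89, -4.66, -4.49 and -4.84 on the Control arrays. Of the 45 probes above background on no array, 31 were called lower and 1 higher, with a median log2 difference of -0.90. Among all 9538 such probes on the array, 58.8% were lower and 1.97% higher, and the lowest signal of an array itself differed by -0.96 on the log2 scale, Eucommia minus Control. With one floor for all arrays, a log2 signal of -4.20, the 33 lower calls became 0. That floor is the highest detection limit of the 8 arrays, so it turns nearly all values of these probes into one constant and leaves almost nothing that could be called lower. The count of lower calls was 6 with quantile normalization, 1 with cyclic loess and 2 with normexp background correction, beside 14, 15 and 11 higher calls. A log2 difference of a probe below background in both groups is not read as a fold change.

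**Figure D2:**
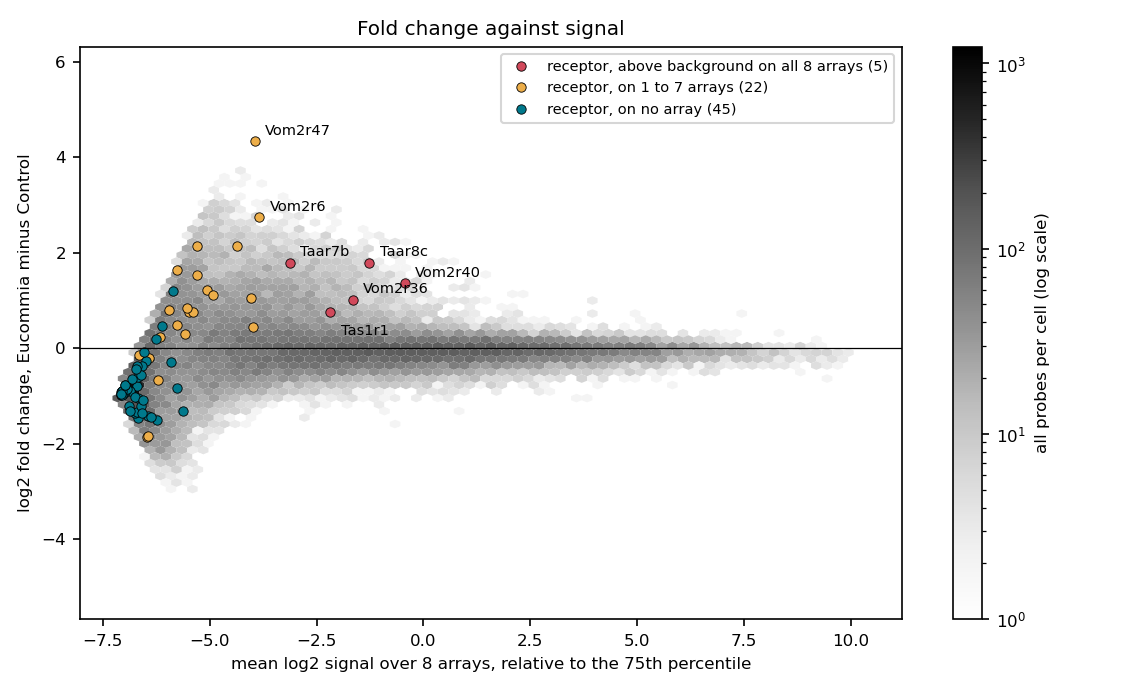
Log2 fold change, Eucommia minus Control (vertical axis), against the mean log2 signal over 8 arrays (horizontal axis), for all 41012 probes in grey and the 72 receptor probes in colour by the number of arrays on which they were above background. The 5 receptors above background on all 8 arrays lie above 0, and most of the 45 above background on none lie below 0 at the left edge.

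Above background on all 8 arrays were 5 receptors, and all 5 were higher in Eucommia liver with no overlap between groups. Of all probes above background on all 8 arrays, 23.5% showed no overlap, counted in either direction. Of the 22369 probes on the array that were above background on all 8 arrays, 11.2% were higher and 7.6% lower, and of the 9115 of these with a mean signal in the same range as the 5, 19.6% were higher and 7.25% lower. Of 95 odorant receptor probes above background on all arrays, 77 were higher and 0 lower. The 5 receptors are from 3 families.

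Vom2r40, a vomeronasal receptor of the family known for peptides and proteins, had log2 signals of 0.14, 0.28, 0.12 and 0.47 in Eucommia liver, against -1.33, -1.27, -1.14 and -0.73 in Control liver. All Eucommia values lay above all Control values. The difference was 1.37 ± 0.15 (SE; limma adjusted p = 0.00022), and it stayed past the threshold in all 25 settings run, alternatives included, from 1.01 to 1.5. Vom2r36, of the same family, had log2 signals of -1.36, -1.22, -1.15 and -0.83 in Eucommia liver, against -2.21, -2.05, -2.34 and -2.05 in Control liver. The groups lay apart, with a difference of 1.02 ± 0.14 (SE; limma adjusted p = 0.000537). With normexp background correction, here with an offset of 50 added to every signal, the difference was 1.01 for Vom2r40 and 0.50 for Vom2r36.

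Taar8c, a trace amine-associated receptor, had log2 signals of -0.30, -0.26, -0.50 and -0.43 in Eucommia liver, against -2.90, -2.43, -1.32 and -2.02 in Control liver. The Eucommia arrays lay close together and the Control arrays were spread out, with no overlap. The difference was 1.80 ± 0.30 (SE; limma adjusted p = 0.00215). Taar7b, from the same gene cluster, had log2 signals of -1.98, -2.10, -2.26 and -2.59 in Eucommia liver, against -4.34, -4.17, -3.77 and -3.83 in Control liver. Its groups lay apart by 1.80 ± 0.18 (SE; limma adjusted p = 0.000144). With normexp background correction the differences were 1.15 for Taar8c and 0.45 for Taar7b.

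Tas1r1, which pairs with Tas1r3 to form the receptor for the taste of amino acids, had log2 signals of -1.75, -1.84, -1.99 and -1.59 in Eucommia liver, against -2.20, -2.58, -2.68 and -2.79 in Control liver. The lowest Eucommia value lay above the highest Control value. The difference was 0.77 ± 0.15 (SE; limma adjusted p = 0.0049), and with normexp background correction it was 0.22 with an adjusted p of 0.0916, past the threshold no longer. Its partner Tas1r3, shared with the sweet receptor, was above background on no array. Tas1r3 had log2 signals of -6.90, -5.48, -5.85 and -5.35 in Eucommia liver, against -6.49, -6.36, -6.28 and -6.29 in Control liver, with overlap and an adjusted p of 0.308 by limma. Without Eucommia replicate 1, the lowest of its group, Tas1r3 passed the threshold (limma adjusted p = 0.00479), with every value below background.

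**Figure D3:**
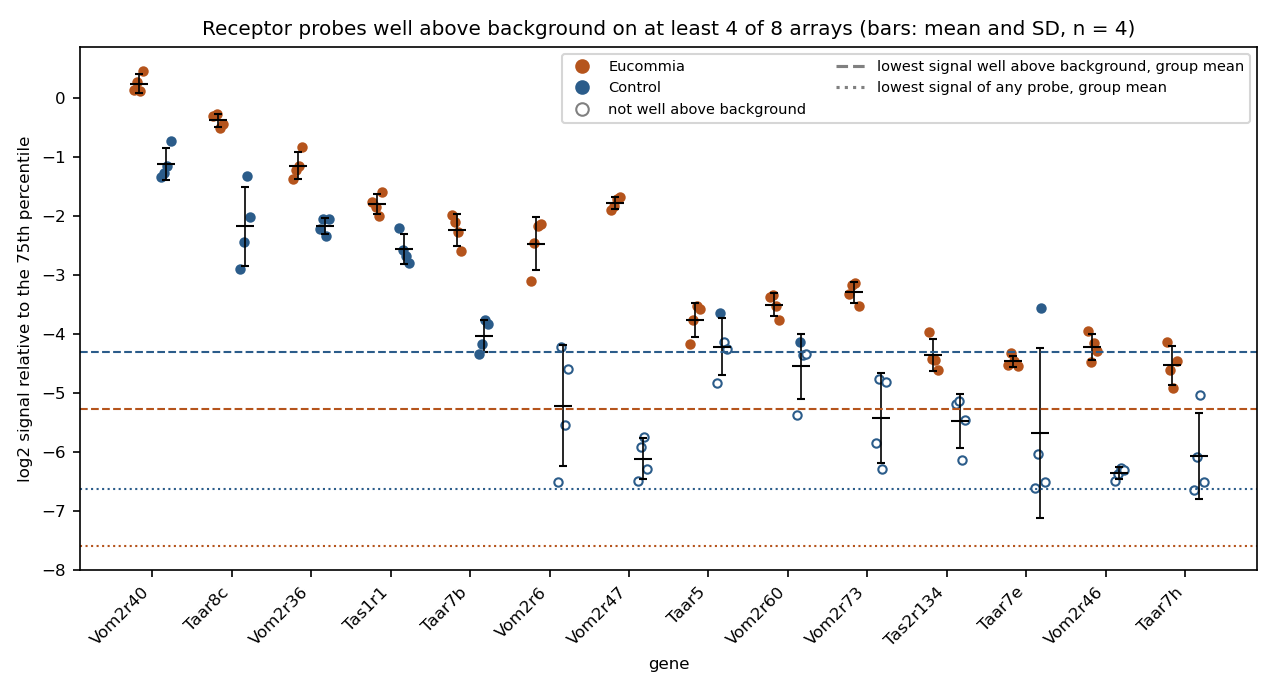
Log2 signal relative to the array's 75th percentile (vertical axis) for the 14 receptor probes above background on at least 4 of 8 arrays, Eucommia left of Control for each gene; filled points are above background, open points are not, and bars are mean and SD of 4 arrays. Dashed lines give each group's mean lowest signal above background and dotted lines its mean lowest signal of any probe; Vom2r47, Vom2r6, Vom2r73, Vom2r46, Tas2r134 and Taar7h have filled points in Eucommia liver alone.

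A further 6 receptors were above background on all 4 Eucommia arrays and on no Control array, and all 6 were called higher. Of 2174 probes on the array with this pattern, 73.7% were called higher, and of 200 odorant receptor probes with it, 91%. The pattern itself selects probes with a higher Eucommia signal, so the count of calls is a description and not a test. For these the fold is a lower bound: the Eucommia mean is set against the higher of the Control signal and that array's lowest signal above background, averaged over the 4 Control arrays. The reverse pattern, on 4 Control arrays and no Eucommia array, was found in 0 of the 72 probes and in 3 of all probes. The mean lowest log2 signal above background was -5.27 on Eucommia arrays and -4.30 on Control arrays. The reverse pattern was therefore harder to reach, and the counts of the patterns are not compared.

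Vom2r47 had log2 signals of -1.90, -1.82, -1.70 and -1.67 in Eucommia liver, against -6.50, -5.92, -5.74 and -6.30 in Control liver. The Eucommia values lay in a narrow band far above every Control value, and the gene was at least 5.78-fold higher (limma adjusted p = 7.44e-06). Vom2r6 had log2 signals of -3.10, -2.45, -2.17 and -2.14 in Eucommia liver, against -6.51, -4.22, -5.55 and -4.59 in Control liver. Its Control values were spread out, below every Eucommia value, and the gene was at least 3.49-fold higher (limma adjusted p = 0.00299). Vom2r73 had log2 signals of -3.32, -3.17, -3.14 and -3.53 in Eucommia liver, against -5.85, -4.77, -6.30 and -4.81 in Control liver, with no overlap. It was at least 2.02-fold higher (limma adjusted p = 0.00175). These 3 vomeronasal receptors kept their call with one floor for all arrays, at log2 differences of 2.43, 1.74 and 0.91. With normexp background correction the differences were 0.94 for Vom2r47, 0.55 for Vom2r6 and 0.23 for Vom2r73, all past the threshold.

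The other 3 lay near the detection limit. Vom2r46 had log2 signals of -3.95, -4.48, -4.16 and -4.28 in Eucommia liver, against -6.50, -6.38, -6.27 and -6.31 in Control liver. Its groups lay apart, but the bound was only 1.06-fold (limma adjusted p = 2.56e-05). Taar7h, of the Taar cluster, had log2 signals of -4.13, -4.61, -4.92 and -4.46 in Eucommia liver, against -6.64, -6.08, -5.03 and -6.51 in Control liver (limma adjusted p = 0.0112). The bitter receptor Tas2r134 had log2 signals of -3.97, -4.42, -4.44 and -4.61 in Eucommia liver, against -5.19, -5.13, -6.14 and -5.46 in Control liver (limma adjusted p = 0.00833). For Taar7h and Tas2r134 the Eucommia mean did not exceed the Control detection limit, so no fold is given, and with one floor for all arrays Vom2r46, Taar7h and Tas2r134 all lost their call, at adjusted p-values of 0.652, 0.712 and 0.712.

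Vom2r47, Vom2r6, Vom2r73 and Vom2r46 with Vom2r40 and Vom2r36 make up 6 of the 8 higher Vom2r probes. The other two, chosen after their values were seen, were Vom2r60, above background on 4 Eucommia arrays and 1 Control array, with a difference of 1.05 ± 0.27 (SE; limma adjusted p = 0.0169), and Vom2r30, above background on 2 Eucommia arrays and no Control array (limma adjusted p = 0.000101). Vom2r60 had log2 signals of -3.37, -3.34, -3.52 and -3.77 in Eucommia liver, against -5.37, -4.13, -4.36 and -4.34 in Control liver. The Eucommia values lay above all Control values. Vom2r60 missed the threshold with normexp background correction, at an adjusted p of 0.052 and a difference of 0.15. Vom2r30 had log2 signals of -4.89, -4.63, -5.25 and -4.99 in Eucommia liver, against -6.74, -6.60, -6.50 and -6.51 in Control liver, near the floor on every Control array. The Vom2r30 call was lost with normexp background correction (limma adjusted p = 0.0746), and with one floor for all arrays the difference was 0 by construction.

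**Figure D4:**
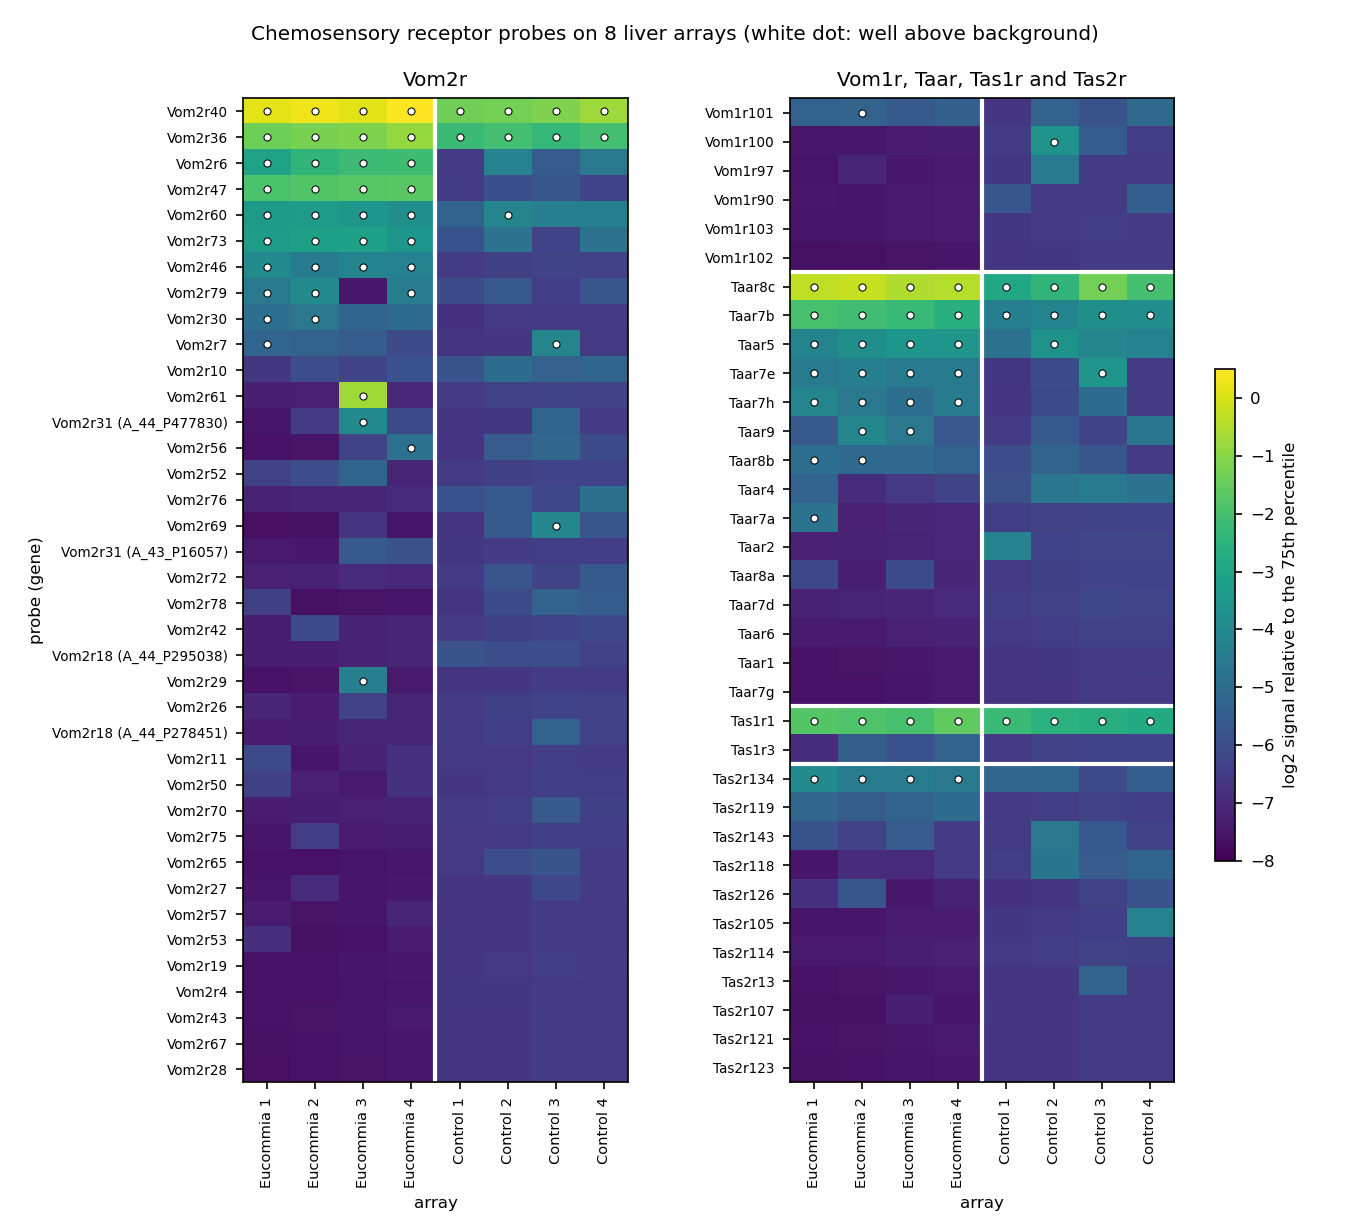
Log2 signal relative to the array's 75th percentile (colour) for all 72 receptor probes (rows, by family and sorted by mean signal) on the 4 Eucommia arrays (left of each panel) and the 4 Control arrays (right); white dots mark probes well above background. Of 38 Vom2r probes, 10 carry dots on Eucommia array 1 and 2 on Control array 1. The dark rows at the foot of the Vom2r, Vom1r, Taar and Tas2r families are darker on the Eucommia arrays. The floor is -7.60 on the Eucommia arrays against -6.64 on the Control arrays.

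Where a gene had more than 1 probe, none of its probes was above background on more than 1 array. Both Vom2r18 probes were above background on none of the 8 arrays and were called lower (limma adjusted p = 0.0132 and 0.000148). The Vom2r31 probes differed between arrays of one group: one had log2 signals of -7.52, -6.52, -4.0 and -6.09 in Eucommia liver, against -6.72, -6.61, -5.25 and -6.52 in Control liver, and was above background on Eucommia array 3 alone. The other had log2 signals of -7.37, -7.42, -5.64 and -5.89 in Eucommia liver, against -6.62, -6.52, -6.41 and -6.45 in Control liver. Neither Vom2r31 probe was called, and both had their highest value on Eucommia array 3.

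In Vom1r, the family with the fewest genes on the array for its size, Vom1r101 and Vom1r100 were the probes with the highest mean signal. Vom1r101 had log2 signals of -5.37, -5.29, -5.60 and -5.43 in Eucommia liver, against -6.67, -5.33, -5.81 and -5.06 in Control liver, with overlap and a limma adjusted p of 0.529. Vom1r100 had log2 signals of -7.45, -7.46, -7.35 and -7.29 in Eucommia liver, against -6.50, -3.62, -5.54 and -6.46 in Control liver. Only Control array 2 was above background for Vom1r100. It was called lower at a limma adjusted p of 0.0429, but 5 of the 8 fits that left out an array missed the threshold (without Eucommia replicate 1, 2, 3 or 4, or Control replicate 3), with adjusted p-values of up to 0.0894. Vom2r69, the other lower probe with a signal above background, on Control array 3 alone, had log2 signals of -7.66, -7.63, -6.64 and -7.51 in Eucommia liver, against -6.69, -5.61, -4.07 and -5.72 in Control liver. Its groups overlapped, and its limma adjusted p of 0.0269 became up to 0.0674 without Eucommia replicate 1, 2 or 4 or Control replicate 2 or 4. It was named after its values were seen.

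The 15 Taar genes with a probe lie in one cluster on chromosome 1 that holds 19 Taar genes in the RefSeq table. Along it, genes above background on some arrays and genes above background on none were interspersed. Taar9, Taar8c and Taar8b, next to each other at one end, were each above background on some arrays, and Taar2 and Taar1 at the other end on none. Taar8c, Taar7h, Taar7e, Taar7b and Taar5 were above background on all 4 Eucommia arrays, whereas Taar8a, Taar7g, Taar7d, Taar6, Taar4, Taar2 and Taar1 were above background on none of the 8 arrays. Taar7h had Taar7g as a neighbour, and Taar5 had Taar6 and Taar4.

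Taar1, the receptor for trace amines outside the nose, had log2 signals of -7.57, -7.54, -7.46 and -7.38 in Eucommia liver, against -6.70, -6.62, -6.49 and -6.50 in Control liver. All 8 values lay within 0.5 of the lowest signal of their array's group, and the lower call (limma adjusted p = 0.000143) was not past the threshold with quantile normalization (adjusted p = 0.954) or cyclic loess (adjusted p = 0.422). With one floor for all arrays the difference is 0 by construction, and no fold is given. Taar5, known in mouse for trimethylamine and named after its values were seen, had log2 signals of -4.17, -3.77, -3.52 and -3.58 in Eucommia liver, against -4.83, -3.65, -4.13 and -4.25 in Control liver. Its groups overlapped, and the difference of 0.46 ± 0.26 (SE) had a limma adjusted p of 0.219. Taar7e, also named after its values were seen, had log2 signals of -4.52, -4.33, -4.45 and -4.54 in Eucommia liver, against -6.61, -6.03, -3.56 and -6.52 in Control liver. Control array 3 was above all Eucommia arrays and the other 3 Control arrays were below them; the limma adjusted p was 0.18 with all arrays and 0.000299 without Control replicate 3.

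**Figure D5:**
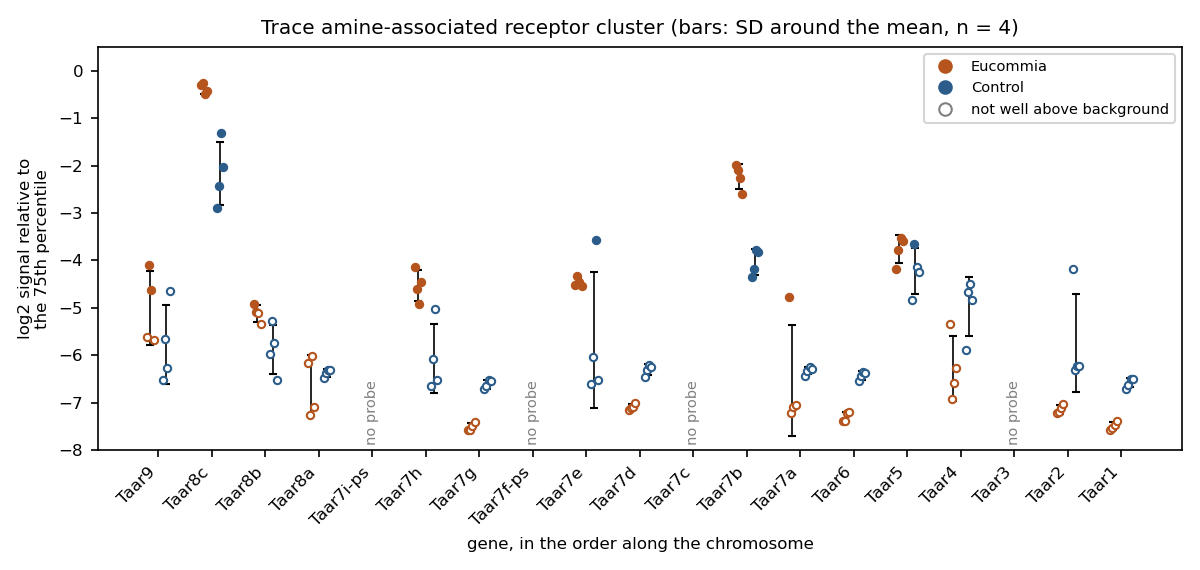
Log2 signal relative to the array's 75th percentile (vertical axis) for the Taar genes in their order along chromosome 1 (horizontal axis), Eucommia left of Control, with the SD of 4 arrays; filled points are above background and 4 genes have no probe. Taar8c and Taar7b are filled on all 8 arrays, while 7 genes between and beside them have only open points.

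Taar8b, next to Taar8c and also named after its values were seen, was called higher at the edge of the threshold. It had log2 signals of -4.92, -5.08, -5.10 and -5.35 in Eucommia liver, against -5.98, -5.28, -5.73 and -6.51 in Control liver, and was above background on 2 Eucommia arrays. The groups overlapped, the limma adjusted p was 0.0448, and of the 8 fits that left out an array only the one without Control replicate 2 passed. Of the 4 higher Taar calls, those of Taar8c and Taar7b were the ones that held with one floor for all arrays.

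Among the 11 bitter receptors, Tas2r134 was the one above background on any array. Per RefSeq, 9 of the 11 Tas2r genes with a probe lie on chromosome 4, Tas2r134 on chromosome 3 and Tas2r119 on chromosome 2. The 2 called higher were Tas2r134 and Tas2r119, and no test of position was made. Tas2r119 had log2 signals of -5.19, -5.48, -5.31 and -5.00 in Eucommia liver, against -6.57, -6.47, -6.37 and -6.41 in Control liver. Its groups did not overlap (limma adjusted p = 0.000138), but it was above background on no array, so no fold is given, and with normexp background correction its adjusted p was 0.123. The chromosome 4 genes include Tas2r105, the receptor for cycloheximide in mouse, named after seeing its values, with 1 Control array at -4.26 and the other 7 at or below -6.41.

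Across all 72 probes the values of the groups did not overlap in 46, beside 35.0% of all probes on the array. Of these 46, 32 were above background on no array, a class in which 5491 of all 9538 probes did not overlap. Among odorant receptor probes, 669 of 1041 did not overlap. A few members had a single array far from the rest: Vom2r61 had log2 signals of -7.25, -7.21, -0.72 and -7.05 in Eucommia liver, against -6.51, -6.37, -6.27 and -6.31 in Control liver. One Eucommia array out of 4 thus carried a clear signal, the limma adjusted p was 0.703, and without Eucommia replicate 3 the difference turned to -0.81. Vom2r79 had the opposite pattern, with -4.59, -3.98, -7.46 and -4.42 in Eucommia liver, against -6.06, -5.62, -6.45 and -5.73 in Control liver, above background on 3 Eucommia arrays and near the floor on Eucommia array 3 (limma adjusted p = 0.407). Vom2r61 and Vom2r79 were named after seeing their values.

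The gene lists drawn up around the signalling of these receptors hold partners and other genes, and they did not move as one group. Of 14 genes listed for vomeronasal transduction, 11 had a probe, of which 1 was higher and 1 lower (median log2 difference 0.05, beside -0.09 over all probes). Over all probes 13.7% were higher and 19.3% lower. The higher one was Ptgir, at -2.01 ± 0.13 in Eucommia and -3.23 ± 0.45 in Control liver (SD, n = 4 each, limma adjusted p = 0.00277). Ptgir, the prostacyclin receptor, is a receptor of its own and not a signalling partner of vomeronasal receptors. No partner on this list that had a probe was therefore higher. The lower one was Plcb4, a phospholipase C, at -3.15 ± 0.30 in Eucommia and -2.34 ± 0.30 in Control liver (SD, n = 4 each; limma adjusted p = 0.0129), which missed the threshold with one floor for all arrays (adjusted p = 0.0531). With normexp background correction the differences were 0.38 for Ptgir and -0.33 for Plcb4. The main channel of the pathway, Trpc2, had no probe that the RefSeq table names, and neither had Gng2 and Ano2. The olfactory marker Omp was above background on none of the 8 arrays.

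Of 14 genes of the olfactory pathway that the Taar family uses, 10 had a probe, with 0 higher, 3 lower and a median of -0.37. The 3 lower genes were the channel subunits Cnga2 and Cngb1 and the transcription factor Emx2, none of them above background on any array, so no fold is given. With one floor for all arrays their differences are 0 by construction. Among all probes above background on no array, 58.8% were lower, and over all probes 19.3% were lower and 13.7% higher. Of 7 olfactory and vomeronasal neuron markers with a probe, 2 were above background on all 8 arrays, 1 was higher and 1 lower.

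Of 17 genes listed for taste transduction, 11 had a probe, with 5 higher, 1 lower and a median log2 difference of 0.36. The higher ones include Otop1, Entpd2 and Pou2f3, which are not signalling partners of Tas1r or Tas2r receptors. Among genes of the receptors' own pathway, Gnat3, Plcb2, Trpm4 and Gnb1 were not called, and these too were named after seeing their values. Over all probes 13.7% were higher and 19.3% lower, and of the 11 genes 9 were above background on all 8 arrays, a class in which 11.2% of all probes were higher and 7.6% lower. Gnb3, a G protein subunit of taste cells, was above background on 4 Eucommia arrays and no Control array and was at least 1.81-fold higher (limma adjusted p = 8.50e-05). Otop1, the proton channel of sour taste, was at -0.93 ± 0.20 in Eucommia and -2.26 ± 0.10 in Control liver (SD, n = 4 each), a difference of 1.33 ± 0.12 (SE; limma adjusted p = 0.000105). Gng13, the G protein subunit that partners taste receptors, was at -1.64 ± 0.25 in Eucommia and -2.78 ± 0.35 in Control liver (SD, n = 4 each; limma adjusted p = 0.00263). The other higher genes were Pou2f3, the transcription factor of tuft and taste receptor cells, at 0.67 ± 0.12, and Entpd2, an ATP-degrading enzyme, at 0.64 ± 0.12, and Itpr3, the calcium release channel of the pathway, was lower at -0.94 ± 0.21 (log2 differences, SE); these 3 were named after seeing their values. With normexp background correction the differences were 0.22 for Gnb3, 0.64 for Otop1, 0.42 for Gng13 and -0.39 for Itpr3, and Pou2f3 lost its call at 0.08 (adjusted p = 0.242).

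Taste and tuft cell markers overlap this list. Of 10 listed, 6 had a probe, and Trpm5, Chat, Il25 and Calhm1 had none. Of the 6, 5 were above background on all 8 arrays, 2 were higher (Gng13 and Pou2f3) and 0 lower. Plcb2, Avil and Dclk1, named after seeing their values, were not called, at log2 differences of 0.05, -0.04 and -0.60. Dclk1 was above background on no array. Over all probes 13.7% were higher and 19.3% lower. Gnat3, the taste G protein gustducin, was at -1.76 ± 0.54 in Eucommia and -2.12 ± 0.44 in Control liver (SD, n = 4 each) with a limma adjusted p of 0.417. Liver tuft cells lie in the bile duct epithelium. Of its 4 markers with a probe, named after seeing their values, 1 was higher and 1 lower (median log2 difference -0.15). Cftr, above background on 4 Eucommia arrays and no Control array, was at least 2.75-fold higher. Of all probes with that pattern 73.7% were called higher. Epcam was lower at -0.34 ± 0.08 in Eucommia and 0.18 ± 0.24 in Control liver (SD, n = 4 each, limma adjusted p = 0.0154). Krt19 and Spp1 were not called, at log2 differences of 0.22 ± 0.17 and -0.63 ± 0.35 (SE, limma adjusted p = 0.374 and 0.217). The part of these cell markers in the receptor values was not tested.

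Of 14 receptor transport and accessory genes, 13 had a probe, with 1 higher and 2 lower (median 0.05). For this list and the trace amine genes below, the shares over all probes were 13.7% higher and 19.3% lower. Reep1, a receptor expression-enhancing protein, was above background on 4 Eucommia arrays and no Control array and was at least 2.20-fold higher (limma adjusted p = 0.000249). Rtp3, a receptor transporter protein, was at 2.81 ± 0.10 in Eucommia and 3.42 ± 0.18 in Control liver (SD, n = 4 each; limma adjusted p = 0.00368). Mrap2, a melanocortin receptor accessory protein, was called lower but was above background on no array, and it missed the threshold without Eucommia replicate 1, 2 or 3 or Control replicate 2, 3 or 4, at adjusted p-values of up to 0.0826. Of 12 genes that make or break down trace amines, 9 had a probe, with 0 higher and 1 lower (median -0.20): Ddc, the decarboxylase that forms trace amines, was at 4.03 ± 0.07 in Eucommia and 4.43 ± 0.16 in Control liver (SD, n = 4 each; limma adjusted p = 0.0205), and missed the threshold without Eucommia replicate 1 (adjusted p = 0.0542) or Control replicate 2 (adjusted p = 0.0519), with cyclic loess (adjusted p = 0.0556) and with the replicate number as a block (adjusted p = 0.0677). Of the formyl peptide receptors, which include vomeronasal receptors in mouse, Fpr1 alone had a probe. Fpr1 was above background on 1 Control array and no Eucommia array and was called lower (limma adjusted p = 0.000594). No fold is given, since the other 3 Control arrays were below background too. Fpr1 lost its call with one floor for all arrays (adjusted p = 0.712) and with normexp background correction (adjusted p = 0.154).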

How the data were processed

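Per the submitters' processing notes, images were quantified in Agilent Feature Extraction 10.1.1.1. The deposited intensity used here is, per the file headers, a processed signal, background-subtracted and detrended within each array and not normalized between arrays; its values show a floor above 0. The deposited series table equalled it at 100% of spots (linear, uncentred, column medians 26.3 to 32). The other deposited columns used, per the file headers, are spot flags. Signals were put on the log2 scale, each array's 75th percentile over non-control spots was subtracted, outlier spots were left out (none was a member's) and spots of a probe were averaged. No probe was filtered out. Probes were named through RefSeq accessions without versions (16336 of 41012, 39.8%; assembly GRCr8).

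All 41012 probes were fitted with limma 3.58.1 (R 4.3.3; lmFit and eBayes, 2-sided, Benjamini-Hochberg over all probes, threshold 0.05). Tables and figures were made with Python 3.11.15, and the test was checked on simulated data. The number of arrays limits the precision. A gene of a list stands for its probe with the highest mean signal. Members and lists were chosen with earlier results of these data known. Named by rule were the 2 members with the highest mean signal in each family, the up to 6 with the largest change among those above background on at least 2 arrays of each group, the up to 6 above background on 4 arrays of 1 group and 0 of the other, Taar1, the Tas1r members, the member with most probes, and up to 3 called genes of each list. Alternatives were other scalings, normexp with an offset of 50 on the spots' median signal, the deposited series table, a common floor, filters on dim probes, 1 probe per gene, outlier spots kept, 2 other variance models, a replicate block, and fits without each array in turn. Same-numbered arrays correlated at -0.02, -0.03, -0.13 and -0.12 over 22352 probes, as deviations from their group means. Arrays with unlike numbers correlated at -0.15 to 0.16. Equal replicate numbers thus showed no sign of a pairing, but with so few arrays these values cannot exclude one.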

Additional observations from a re-analysis of the deposited data

Results flagged for a closer look

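The 72 probes and 5 shares above background (all receptors, Vom2r, Vom1r, Taar and Tas2r) in both groups gave 154 groups of 4 arrays. Of these, 16 had an array far from the others. Chance marks about 1 in 20 where values are normally distributed, which values near the floor need not be. The Tas2r shares were equal on all arrays of a group and could not be marked. The value given is the gap to the nearest array divided by the group's range. On the Eucommia arrays these were Vom2r61 (0.969, array 3 high), Vom2r29 (0.940, array 3 high), Taar7a (0.932, array 1 high), Vom2r78 (0.883, array 1 high), Vom2r69 (0.850, array 3 high) and Vom2r42 (0.845, array 2 high). On the Control arrays, array 3 was high for Tas2r13 (0.87), Vom2r70 (0.847), 1 Vom2r18 probe (0.835), Vom2r7 (0.933) and 1 Vom2r31 probe (0.862). Taar2 (0.959) had Control array 1 high at -4.19 and the other 3 at -6.30, -6.22 and -6.23. Vom1r97 (0.930, Control array 2 high) and Tas2r105 (0.909, Control array 4 high) were the other two probes. The share of Vom1r probes above background had a value of 1 in both the Eucommia and the Control group, since 1 probe was above background on 1 array of each. Vom2r61 on Eucommia array 3 had a raw processed signal of 139 units.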

How the results depend on the processing

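The 15 higher receptor calls came to 9 with a common floor, alone or with a filter of 4 of 8 arrays (floor with filter was chosen after seeing the data), and to 5 with filters of all 8 arrays or 2 of each group, which test fewer probes. The 33 lower calls came to 6 (quantile), 1 (cyclic loess), 2 (normexp) and 0 (common floor, each of the 3 filters, and floor with filter). None of the 33 probes was above background on more than 1 array, so every filter left all of them out. Their counts of 0 with a filter were thus fixed beforehand and do not test the calls. Over all probes 5620 higher calls came to 3573 (common floor), 2431 (all 8 arrays) and 2851 (2 of each group); 7908 lower calls came to 4538 (quantile), 16695 (median centring), 3014 (cyclic loess), 3821 (normexp), 1175 (common floor), 1762, 1580 and 1604 (filters of 4 of 8, all 8 and 2 of each group) and 1786 (floor with filter). Median centring moved the median log2 difference of all probes to -0.35. A common floor sets nearly all values of dim probes equal, so few could be called lower; the other causes were not tested. The shares above background moved from 25% to 50.7% (Eucommia) and from 9.03% to 36.5% (Control) with the weaker mark. Leaving out 1 array gave 14 to 16 higher and 28 to 33 lower receptor calls, and 4908 to 5530 higher and 6818 to 7672 lower calls over all probes. With the replicate number as a block, 14 receptors were higher and 30 lower, and 4878 and 6860 of all probes. Taar7h lost its call in that fit, and whether the numbers pair the samples is not known. Signs turned for Cngb1 (0.0238), Taar1 (0.0788), Taar8b (-0.00947) and a Vom2r31 probe (0.094) with normexp, for Taar7e (-0.16) with a common floor, alone or with the filter, for the same Vom2r31 probe with quantile (0.57) and cyclic loess (0.57) and without an array (-0.40 to 0.20), for the other Vom2r31 probe with median centring (-0.0177) and without an array (-0.43 to 0.74), and without an array for Vom1r101 (-0.0235 to 0.512) and Vom2r61 (-0.81 to 1.37). A low signal limits all of these: dim probes near the floor have no firm fold.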
